A study of Eohaustorius estuarius with 16 samples.

Results

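The 150 contigs described here were those whose level varied most from sample to sample inside both groups of an exposure study of Eohaustorius estuarius, while the group means stayed close. A contig is an assembled stretch of transcript sequence, and each of the 8507 contigs on the array had 1 probe. E. estuarius is a burrowing amphipod crustacean of estuaries that is widely used to test the toxicity of sediments. Cyfluthrin samples came from sediment that held this pyrethroid at a nominal 1.6 µg/kg for a 10-day exposure, and control samples from sediment that had received the solvent for as long. RNA of whole bodies was measured in laboratory F on 8 cyfluthrin and 8 control one-colour arrays, on 2 slides that each carried 4 of either group. The labels do not say whether a sample was 1 animal or several, or whether samples came from separate containers, so a p-value here reflects the spread among these samples and no more, which may be technical. They give no sex, age, moult stage or feeding state for any sample.

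Pyrethroids such as cyfluthrin bind sodium channels of the nervous system and hold them open. Whole-body RNA of a crustacean mixes many tissues, and transcript levels in such RNA are known to differ with sex, reproductive state, the moult cycle and feeding. In RNA of this kind, fewer cells of a type and less RNA per cell cannot be told apart. The files used here name no gene for any contig, so the contigs are given by number, no role is stated for them, and the tissue label could not be checked against marker genes.

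The members were chosen from measured values. The rule started from the authors' deposited log2 value table with cyfluthrin replicates 5 and 6 averaged because those arrays differed by less than measurement noise. Their typical squared difference was 0.851 of the error variance given by the scanner software, while control replicates 2 and 3, the second most alike arrays, had 3.31. The names of their deposited files carry the same sample mark, and whether they are 2 samples or 1 RNA on 2 arrays is not known. This left 7 cyfluthrin and 8 control samples. Of the 8507 contigs, 6852 were well above background on 8 or more arrays, and the group means of 6396 of these differed by less than 1 on the log2 scale. A further 118 were dropped because they lay at least 3 log2 units below the median of the rest of their group in all of cyfluthrin replicate 2, control replicate 1 and control replicate 8. The 6278 left were ranked by the smaller of their SDs in the cyfluthrin and control samples, and the first 150 were taken. The members were thus the most variable of the contigs that the rule left, and not of the whole array. With the dropped contigs kept, 59 of the 150 would have been chosen.

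Every level below is the log2 processed signal of the contig less the 75th percentile of its array, so that 0 is a bright contig and a difference of 1 is 2-fold. On this scale the median of the smaller SD was 1.74 in the members and 0.318 over all 6852 tested contigs, which is what the rule selected. The limit fell where values were crowded. In the value table the members contig_4129 and contig_6303 had smaller SDs of 1.214 and 1.216, and contig_7300 and contig_2294, just outside, had 1.21 each. Contig_4129 ran from -1.55 to 1.99 (median 1.24) in cyfluthrin samples and from -2.05 to 1.63 (median 1.14) in control samples. Contig_6303 ran from -5.14 to -1.28 (median -2.45) in cyfluthrin samples and from -5.66 to -1.07 (median -2.81) in control samples. The groups overlapped in both, and both were lowest in cyfluthrin replicate 2 and control replicate 1. Outside the limit, contig_7300 ran from -6.13 to -1.53 (median -2.80) in cyfluthrin samples and from -5.36 to -1.90 (median -2.33) in control samples. Contig_2294 ran from -5.16 to -0.54 (median -3.84) in cyfluthrin samples and from -3.38 to -0.24 (median -2.35) in control samples.

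The level of a member ranged over 13.1-fold to 6464-fold between its lowest and highest sample, with a median of 59.8-fold. The SD over samples had a median of 2.07 with cyfluthrin and 1.80 in control samples, against 0.363 and 0.433 over all tested contigs. The SD was larger in the cyfluthrin samples in 115 of 150 members (76.7%), and in 41.3% of all tested contigs. These values chose the members, and no test was made of them.

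The 6 members with the highest smaller SD were contig_2344, contig_1540, contig_206, contig_1408, contig_2378 and contig_393. Contig_2344 ran from -6.31 to 6.35 (median -2.12) in cyfluthrin samples and from -5.04 to 4.90 (median -1.53) in control samples. Contig_1408 ran from -5.46 to 5.94 (median -2.57) in cyfluthrin samples and from -3.62 to 4.60 (median -1.69) in control samples. Contig_206 ran from -7.10 to 3.83 (median -5.68) in cyfluthrin samples and from -6.18 to 2.75 (median -3.25) in control samples. All 3 were highest in cyfluthrin replicate 1 and in control replicate 5, and their groups overlapped.

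Contig_1540 and contig_2378 had another order of samples. Contig_1540 ran from -6.90 to 4.54 (median 2.34) in cyfluthrin samples and from -5.27 to 3.66 (median 1.61) in control samples. Contig_2378 ran from -7.71 to 3.22 (median 1.18) in cyfluthrin samples and from -6.43 to 2.75 (median 0.070) in control samples. Both were lowest in cyfluthrin replicate 7 and control replicate 3, and highest in cyfluthrin replicate 2 and control replicate 1. In contig_393 control replicate 1 was the lowest control sample instead, and cyfluthrin replicate 3 the lowest cyfluthrin sample. That contig ran from -4.92 to 3.26 (median -0.97) in cyfluthrin samples and from -6.08 to 3.15 (median 0.59) in control samples.

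**Figure D1:**
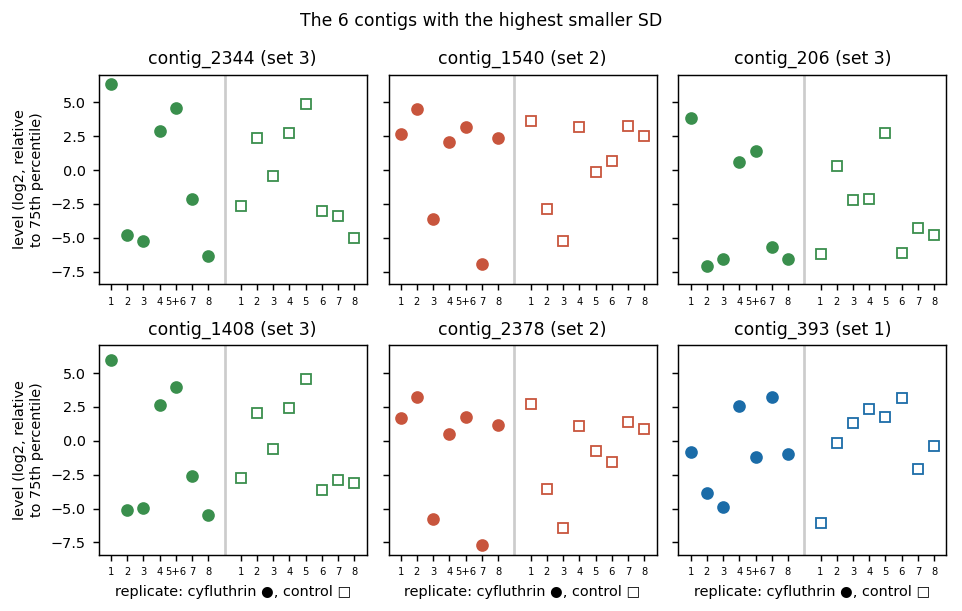
Level of the 6 members with the highest smaller SD, in log2 units relative to the array's 75th percentile, with 1 symbol per sample: filled circles on the left for 7 cyfluthrin samples, open squares on the right for 8 control samples. Contig_2344, contig_206 and contig_1408 share their high samples, contig_1540 and contig_2378 share their low ones, and both groups span most of each panel.

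The members varied together in a few patterns. Pairs of members with a correlation above 0.8 made up 31.4% of all pairs, against 0.846% among all tested contigs, and pairs below -0.5 made up 32.5% against 8.15%. These correlations are over the 15 samples after each group's mean was taken off, and all values of a sample share 1 array and its scaling. The first 3 principal components held 89.4% of the members' variance and 69.4% of that of all tested contigs. Grouping the members by correlation gave 3 sets of at least 10 contigs, with 69, 59 and 13 members, and left 9 contigs outside. The median correlation between 2 contigs of a set was 0.91 in set 1, 0.92 in set 2 and 0.83 in set 3. The sets were made from these values, so their existence is a description and is not tested.

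The contigs of a set varied together in either group. Within the cyfluthrin samples alone the median correlation was 0.95 in set 1, 0.95 in set 2 and 0.83 in set 3, and within the control samples alone it was 0.90, 0.91 and 0.89. Sets made from the 7 cyfluthrin samples alone held 64, 59 and 16 contigs, of which 64, 59 and 13 belonged to sets 1, 2 and 3. In the control samples, which did not make these sets but helped to choose the members, the pairs in them had median correlations of 0.92, 0.91 and 0.82. Sets made from the 8 control samples alone held 69, 59 and 13 contigs, and 69, 58 and 13 of these belonged to sets 1, 2 and 3. Their medians in the cyfluthrin samples were 0.95, 0.95 and 0.83. The rule had used part of this pattern, since it ranked by the SDs of both groups and dropped contigs that were low together in 3 samples. Neither group is thus independent of the choice, and these counts and medians are a description.

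Set 1, with 69 contigs, was at a similar level in most samples and far lower in a few. Its mean level in cyfluthrin replicates 1, 2, 3, 4, 5 with 6, 7 and 8 was -2.50, -5.48, -1.15, -0.58, -2.26, -0.61 and -1.20. In control replicates 1 to 8 it was -5.08, -0.68, -0.65, -1.53, -0.82, -0.95, -2.01 and -3.58. The low samples were cyfluthrin replicate 2, control replicate 1 and control replicate 8, which are the same 3 that the rule had used to drop contigs. The mean over samples was -1.97 ± 1.72 (SD, n = 7) with cyfluthrin and -1.91 ± 1.61 (SD, n = 8) in control samples. The range was 29.9-fold in cyfluthrin samples and 21.5-fold in control samples.

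The contigs with the highest mean correlation with the other contigs of set 1 were contig_6047 and contig_1664. Contig_6047 ran from -5.09 to 0.68 (median -0.15) in cyfluthrin samples and from -5.00 to -0.0012 (median -0.71) in control samples. Contig_1664, well above background on every array, ran from -2.80 to 3.01 (median 2.49) in cyfluthrin samples and from -2.78 to 2.63 (median 1.90) in control samples. In both, cyfluthrin replicate 2 and control replicate 1 were the lowest of their groups, and the groups overlapped. Contig_4433, the only member with 11 spots on the array, ran from -3.70 to 1.65 (median 0.93) in cyfluthrin samples and from -2.29 to 1.19 (median 0.52) in control samples. Its low samples were the same, and its spots differed by an SD of 0.0844 within an array.

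Set 1 was the edge of a larger group of contigs. Outside the members, 293 tested contigs had a correlation above 0.8 with its mean, and 129 of these were among the 132 tested contigs that were low in all 3 samples. Another 155 had too small an SD to be chosen. Of the 69 members of the set, 44 were at least 3 log2 units low in 2 of the 3 samples, 15 in 1 and 10 in none. The rule therefore fixed part of the shape of this set, since a contig low in all 3 could not be a member.

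Set 2, with 59 contigs, was low in other samples. Its mean level in cyfluthrin replicates 1, 2, 3, 4, 5 with 6, 7 and 8 was -0.71, 0.32, -5.76, -1.26, -0.21, -6.64 and -1.71. In control replicates 1 to 8 it was 0.13, -4.39, -5.10, -0.66, -2.11, -3.23, -0.61 and -0.37. Cyfluthrin replicates 3 and 7 and control replicates 2, 3 and 6 were the low samples, and cyfluthrin replicate 2 and control replicate 1 were the highest of their groups. The mean over samples was -2.28 ± 2.77 (SD, n = 7) with cyfluthrin and -2.04 ± 1.99 (SD, n = 8) in control samples. This set had the widest range of the 3 with cyfluthrin, 124-fold, and ranged over 37.5-fold in control samples. It also supplied 34 of the 50 members with the highest smaller SD, against 10 from set 1 and 5 from set 3.

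Contig_8077 and contig_3241 had the highest mean correlation with the other contigs of set 2. Contig_8077 ran from -7.05 to -0.57 (median -2.37) in cyfluthrin samples and from -6.48 to -0.72 (median -2.60) in control samples. Contig_3241 ran from -6.91 to 0.66 (median -0.24) in cyfluthrin samples and from -4.22 to 1.23 (median -0.55) in control samples. Both were highest in cyfluthrin replicate 2 and control replicate 1, both were lowest among controls in replicate 3, and the groups overlapped. Outside the members, 21 tested contigs had a correlation above 0.8 with the mean of set 2.

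**Figure D2:**
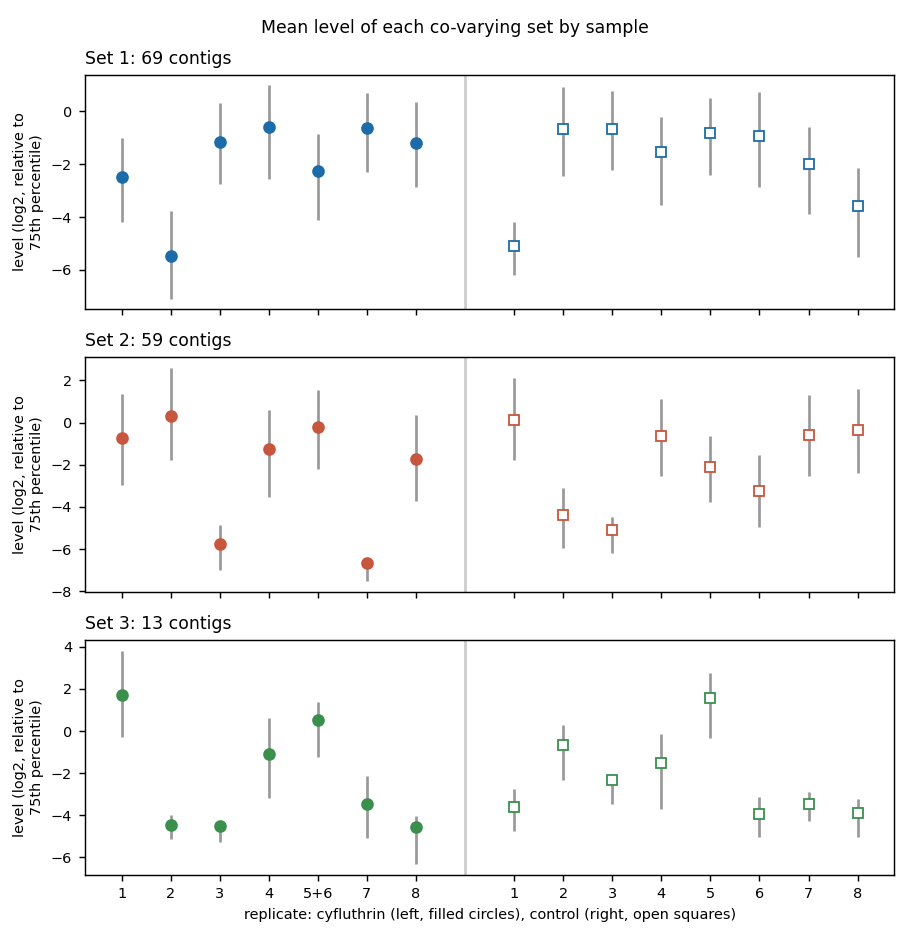
Mean level of the 3 sets in each sample (log2, relative to the 75th percentile), with filled circles on the left for cyfluthrin and open squares on the right for control samples. Grey bars span the 25th to the 75th percentile over the contigs of the set. Set 1 is lowest in cyfluthrin replicate 2 (-5.48) and control replicate 1 (-5.08), set 2 in cyfluthrin replicate 7 (-6.64) and control replicate 3 (-5.10), and set 3 is highest in cyfluthrin replicate 1 (1.71) and control replicate 5 (1.56).

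Set 3, with 13 contigs, was high in a few samples and low in the rest. Its mean level in cyfluthrin replicates 1, 2, 3, 4, 5 with 6, 7 and 8 was 1.71, -4.46, -4.52, -1.09, 0.50, -3.46 and -4.57. In control replicates 1 to 8 it was -3.61, -0.67, -2.33, -1.52, 1.56, -3.93, -3.48 and -3.91. Cyfluthrin replicate 1, cyfluthrin replicates 5 with 6 and control replicate 5 were the only samples above 0. The mean over samples was -2.27 ± 2.63 (SD, n = 7) with cyfluthrin and -2.24 ± 1.95 (SD, n = 8) in control samples, and the range was 77.9-fold and 45.2-fold. Contig_633 and contig_206 had the highest mean correlation with the other contigs of the set. Contig_633 ran from -7.07 to -0.28 (median -6.23) in cyfluthrin samples and from -5.78 to 0.0047 (median -4.52) in control samples, highest in the same samples as contig_206. Outside the members, 40 tested contigs had a correlation above 0.8 with the mean of the set, and 21 of them differed between the group means by 1 or more, 18 with a higher and 3 with a lower mean in cyfluthrin samples, which had kept them from membership. In limma 1 of these 21 was called changed, against 29.9% of all tested contigs. Of all 40 that followed set 3, 1 was called higher and 0 lower. Of the 21 outside the members that followed set 2, 0 were called higher and 8 lower. Of the 293 that followed set 1, 5 were called higher and 1 lower. Over all tested contigs 7.44% were called higher and 22.5% lower. The contigs that followed a set were picked by their likeness to it, so nothing is read from these counts.

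Sets 1 and 2 were not low together in any sample. The 5 samples with set 2 below -3, cyfluthrin replicates 3 and 7 and control replicates 2, 3 and 6, had set 1 between -1.15 and -0.61. The 3 samples with set 1 below -3, cyfluthrin replicate 2 and control replicates 1 and 8, had set 2 between -0.37 and 0.32. In the other samples set 1 was between -2.50 and -0.58 and set 2 between -2.11 and -0.21. Samples of both groups stood at either end. The 3 levels of 1 sample share its array and scaling, and with 3 of the low samples also used by the rule this arrangement is not a test.

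**Figure D3:**
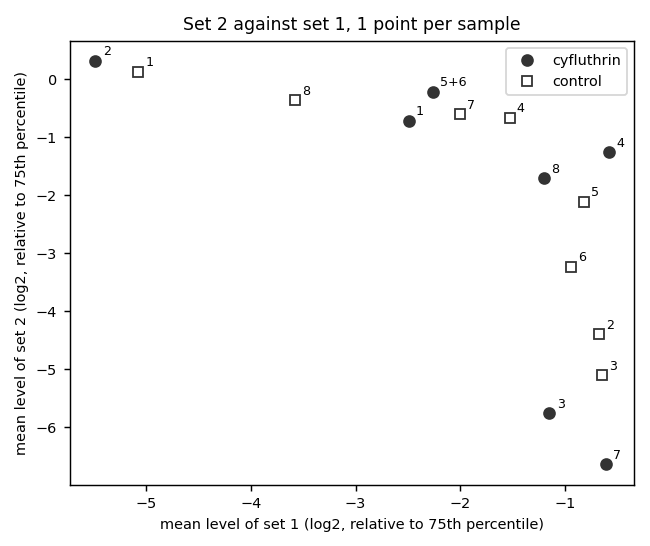
Mean level of set 2 (vertical) against that of set 1 (horizontal), both in log2 units relative to the 75th percentile, with 1 point per sample labelled by replicate number, filled for cyfluthrin and open for control. No sample lies at the lower left, where both sets would be low, and cyfluthrin and control samples lie at both ends.

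The extreme samples of the members were often the same few. Cyfluthrin replicate 2 was the lowest cyfluthrin sample in 71 members and cyfluthrin replicate 7 in 56. Among controls, replicate 1 was lowest in 68 members and replicate 3 in 43. A single cyfluthrin sample gave over 50% of the summed squared deviations of its group in 75 members (50%) and in 39.3% of all tested contigs. A single control sample did so in 43 members (28.7%) and in 40.9% of all tested contigs. The rule had ranked by the spread that these deviations make up, so the shares are a description. Over all tested contigs cyfluthrin replicates 2 and 7 were lowest in 14.7% and 18.3%, against 47.3% and 37.3% of the members. Control replicates 1 and 3 were lowest in 15.8% and 7.24% of all tested contigs, against 45.3% and 28.7% of the members. Members of a set move together, so these counts are not independent of the patterns of the sets. The 75th percentile of the unscaled log2 signal was 7.74 in cyfluthrin replicate 2 and 8.14 in cyfluthrin replicate 7, against 6.89 in control replicate 1 and 7.06 in control replicate 3, within 6.15 to 8.14 over all 16 arrays. The part of array brightness in these patterns was not tested.

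The spread of the members over samples is given beside 2 measures of difference between measurements. Since the members were chosen for a large spread, a small ratio of either measure to that spread follows from the choice, and the ratios are a description. The first measure was the difference between spots of the same contig on 1 array, available for the 113 members with more than 1 spot. The median spot-to-spot SD was 0.278 in these members and 0.122 in the 5066 tested contigs with more than 1 spot, so the spots of the members differed more. As a ratio to the smaller SD over samples it was 0.155 in the members and 0.386 in all. The spots differed by less than the samples in 112 of the 113 members, and the ratio was over 0.5 in contig_1649, contig_234 and contig_7816. It was lowest in contig_5068 of set 1, at 0.025. That contig ran from -4.41 to 2.84 (median 2.15) in cyfluthrin samples and from -5.77 to 2.55 (median 1.42) in control samples, lowest in cyfluthrin replicate 2 and control replicate 1.

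In contig_1649 the ratio was 1.39, and its place among the members rested on 1 spot. Its averaged level ran from -1.92 to 1.81 (median -1.15) in cyfluthrin samples and from -2.04 to 2.96 (median -1.49) in control samples. In control replicate 4 the 2 spots stood at 8.06 and -2.13, and neither carried an outlier flag. By the second spot alone the SD was 1.24 in cyfluthrin samples and 0.428 in control samples, below the limit of the rule. In cyfluthrin replicate 7, its highest cyfluthrin sample, the 2 spots were close, at 1.80 and 1.82.

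The second measure was the difference between cyfluthrin replicates 5 and 6, which lay on different slides. The pair had been averaged in the rule for its likeness, so its difference is small by choice. Its median size was 0.147 in the members and 0.129 in all tested contigs. As a ratio to the smaller SD it was 0.0725 in the members and 0.399 in all. The set means of replicates 5 and 6 were -2.32 and -2.20 in set 1, -0.29 and -0.14 in set 2 and 0.49 and 0.52 in set 3. The difference was smallest in contig_226, at 0.00055. Contig_226 belonged to no set, was well above background on every array and ran from 0.024 to 4.95 (median 3.76) in cyfluthrin samples and from 0.98 to 5.93 (median 2.33) in control samples.

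In 8 members the difference between replicates 5 and 6 was over 0.5 times the smaller SD. It was largest in contig_7258 of set 1, which stood at -6.40 on the array of replicate 5 and -4.18 on that of replicate 6. That contig was well above background on 10 of 16 arrays, and ran from -6.97 to -3.26 (median -3.94) in cyfluthrin samples and from -6.19 to -2.41 (median -3.68) in control samples. The pair stands for 1 cyfluthrin sample only. If both arrays hold 1 RNA, the difference is that of the array and labelling alone.

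**Figure D4:**
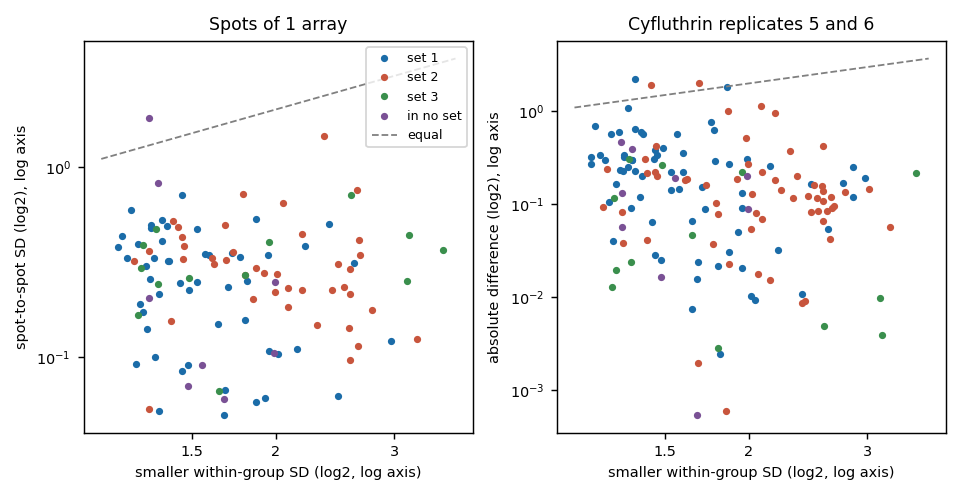
Difference between measurements of each member against its smaller within-group SD, with all axes in log2 units on a log scale and 1 point per contig, coloured by set. The left panel shows the spot-to-spot SD within an array for 113 members, the right panel the absolute difference between cyfluthrin replicates 5 and 6 for 150. Points below the dashed line have a difference smaller than their SD over samples, which holds for all members but contig_1649 on the left and contig_7258, contig_4882 and contig_2040 on the right.

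Many members were close to background where they were low. All 150 were well above background in the highest sample of either group, but in the lowest sample this held for 43 members with cyfluthrin and 41 in control samples. The fold ranges above that end at background are thus set partly by it. Contigs that were not well above background had a median level between -6.70 and -4.77 on the 16 arrays. In cyfluthrin replicate 7 and control replicate 3 it was -6.70 and -5.50, against set 2 means of -6.64 and -5.10. In cyfluthrin replicate 2 and control replicate 1 it was -6.40 and -5.55, against set 1 means of -5.48 and -5.08. In cyfluthrin replicate 8 and control replicate 6 it was -6.10 and -5.97, against set 3 means of -4.57 and -3.93. At its lowest the mean of set 3 thus stayed further above that level than the means of sets 1 and 2. Many contigs of set 3 were still close to background there. Of its 13 contigs, 6 were well above background in cyfluthrin replicate 8 and 5 in cyfluthrin replicate 3. In control replicate 6 the count was 8, and in control replicate 8 it was 5. Set 1 had 26 of 69 contigs well above background in cyfluthrin replicate 2, against 20 in control replicate 1 and 33 in control replicate 8. Set 2 had 11 of 59 in cyfluthrin replicate 7 and 16 in cyfluthrin replicate 3, against 14 in control replicate 3 and 30 in control replicate 2. The members were also dimmer than other contigs, with a median level of -2.22 against -1.41, and 32% of them lay in the dimmest 20% of the tested contigs.

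Of the members 29 were well above background on every array (19.3%, against 74.5% of all tested contigs). They held 17 contigs of set 1, 4 of set 2, 3 of set 3 and 5 in no set. Their smaller SD had a median of 1.49, and their levels ranged over 15.3-fold to 1186-fold between samples, with a median of 32.1-fold. Within them the median correlation was 0.95 in set 1, 0.94 in set 2 and 0.81 in set 3. These contigs had helped to make the sets, so the correlations are a description. Those of sets 2 and 3 rest on 4 and 3 contigs. The spot-to-spot SD was 0.100 at the median in the 25 of them with more than 1 spot.

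**Figure D5:**
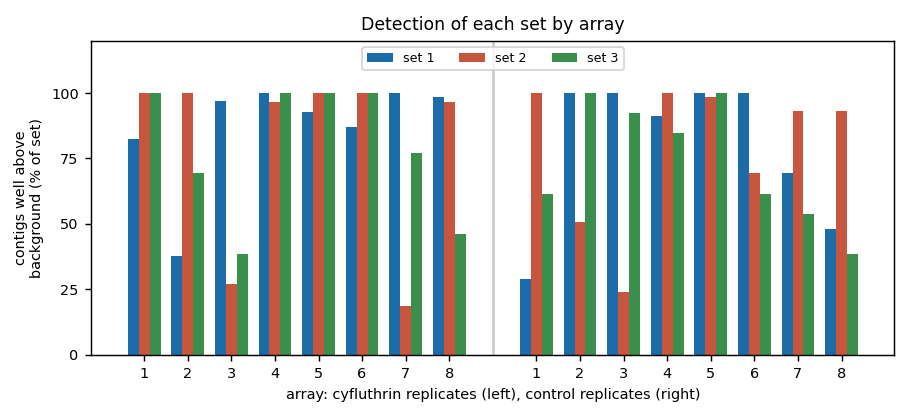
Share of the contigs of each set that were well above background on each of the 16 arrays, in percent, with 8 cyfluthrin replicates on the left and 8 control replicates on the right. Bars of set 1 are shortest in cyfluthrin replicate 2 and control replicate 1, and bars of set 2 in cyfluthrin replicate 7 and control replicate 3.

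Some members were almost copies of each other in these samples. Of the 11175 pairs of members, 51 had a correlation above 0.99, and they joined 33 contigs, 18 of them in set 2. Several contigs can stem from 1 gene, which could not be checked without sequences. The members held 4 pairs with consecutive contig numbers. The median correlation of such pairs was 0.028 over all tested contigs, and that between any 2 members of set 2 was 0.92. Contig_1680 with contig_1681 and contig_5420 with contig_5421, all in set 2, had correlations of 0.98 and 0.95, while contig_3040 with contig_3041 had -0.53 and contig_7085 with contig_7086 had -0.28. The number of separate genes behind the 150 contigs is therefore not known.

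Cyfluthrin and control samples were compared in limma, with p-values adjusted over all 6852 tested contigs. The call was made in 2052 contigs (29.9%), 510 higher (7.44%) and 1542 lower (22.5%) with cyfluthrin, and in 0 of the 150 members. The split of higher and lower depended on the scaling, with 718 and 724 under median scaling. At an unadjusted p below 0.05 the counts were 2897 contigs (42.3%) and 0 members. Groups without any overlap of their values were found in 420 contigs (6.13%) and in 0 members. The rule had required close group means and large spread, so these counts of 0 follow from the choice and nothing is read from them. The median of cyfluthrin minus control was -0.096 over the members and -0.16 over all tested contigs, and the median SE was 0.93 against 0.21. The lowest adjusted p of a member was 0.289, in contig_7816, with a difference of -0.95 ± 0.65 (SE).

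The slides were compared as the batch that the files record, with treatment as a covariate and the array of cyfluthrin replicate 5 standing for its pair. Limma called 1 contig (0.0146%) and 0 members. At an unadjusted p below 0.05 it gave 494 contigs (7.21%) and 20 members (13.3%), or 416 (6.07%) and 9 members (6%) with the array of replicate 6 in its place. The direction was shared within each set: slide 2 was higher in 69 of 69 contigs of set 1 (median 1.20), and lower in 59 of 59 of set 2 (median -1.86) and in 13 of 13 of set 3 (median -1.13). With the array of replicate 6 the medians were 1.15, -1.25 and -0.46, with the same direction in every contig of the 3 sets. Over all tested contigs slide 2 was higher in 2710 of 6852, with the array of replicate 5. The median absolute slide difference was then 1.38 in the members and 0.181 in all tested contigs. The members were chosen for a large spread, so a larger difference is not a finding. Contigs of a set move together, so the counts by set carry little more than 1 observation each. Any slide difference is part of the SDs that the rule used. Within slide 2 alone the median correlation was 0.88, 0.92 and 0.85 in sets 1, 2 and 3, and within slide 1 alone 0.90, 0.94 and 0.86. The lowest slide p of a member was that of contig_8030, with a difference of -2.14 ± 0.38 (SE) and an adjusted p of 0.130 in limma, or 0.718 with the array of replicate 6.

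How widely the samples of a group differed within a slide depended on the set. On slide 2 the mean of set 2 ran from -5.76 to -0.14 in cyfluthrin arrays and from -5.10 to -0.37 in control arrays. On slide 1 it ran from -6.64 to 0.32 in cyfluthrin arrays and from -2.11 to 0.13 in control arrays. The low control samples of set 2, replicates 2, 3 and 6, all lay on slide 2. For set 1 the lowest array of slide 2 was control replicate 8, at -3.58, and that of slide 1 was cyfluthrin replicate 2, at -5.48. The cyfluthrin arrays of slide 2 ran only from -2.20 to -0.58 in set 1.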

How the data were processed

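Whole-body RNA of 8 cyfluthrin and 8 control samples was hybridised to one-colour Agilent arrays. Per the labels' protocols, Cy3-labelled cRNA was made with a low-input kit, and RNA came from RNeasy columns in all but 1 unnamed laboratory. The deposited intensity columns hold each spot's processed signal, background-subtracted by Agilent Feature Extraction (11.5.1.1 per the file headers, 9.1 per the submitters' processing notes). The authors' deposited log2 value table came within a median of 0.000896 of quantile-normalised values recomputed from the intensities and centred on each contig. Its column medians ran from -0.11 to 0.12. Its scale and centring are inferred from that comparison.

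Of 15744 spots per array, 536 control spots and the spots flagged as outliers were left out. The log2 intensity was reduced by the array's 75th percentile and spots of a contig were averaged. A contig was well above background where at least 50% of its spots were. Members were found from the value table, and all other values come from the scanner files. Cyfluthrin replicates 5 and 6 were averaged, and their correlation was 0.993 over 5106 contigs. Groups and slides were compared with limma 3.58.1 in R 4.3.3 with Benjamini-Hochberg adjustment and a threshold of 0.05. The fit of the groups and the ranking by the smaller SD were first tried on simulated data. The simulation did not exercise the background filter, the limit on the group difference or the dropping of jointly low contigs. Sets come from average linkage on 1 minus the correlation, at a height of 0.4 (python 3.11.15, scipy 1.17.1). The number of arrays limits the precision.

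The contigs named are the 6 with the highest smaller SD, the 2 either side of the limit, the 2 in each set with the highest mean correlation with its other contigs, the member with 11 spots, and those with the extreme values of both measures of difference between measurements. Contig_234, contig_7816, contig_8030, the consecutive pairs and the other contigs named at either end of a count were chosen after their values were seen. The members, the rule and the lists were chosen with earlier results of these data known. Gene lists could not be used, since the files name no gene. Same-numbered samples did not deviate together (correlations of their deviations from -0.67 to 0.47), so numbers were not taken as pairs. The alternatives were other scalings, normexp with an offset of 50, the value table, other filters, blocks, other cuts of the sets and each sample left out in turn.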

Additional observations from a re-analysis of the deposited data

Results flagged for a closer look

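The levels of the contigs named, the set means and summary measures of the arrays gave 54 sets of values, each of 1 group. In each, a lone sample far from the others was looked for. The array measures included brightness and the share of contigs well above background. Chance marks about 1 in 20 of sets not chosen for their spread. The contigs and set means were so chosen, and that rate does not apply to them. Here 8 were marked, and none was a summary measure of the arrays. Cyfluthrin replicate 2 stood apart in 5 of them. The mean of set 1 was -5.48 there, against -2.50 to -0.58 in the other cyfluthrin samples. Contig_1664 stood at -2.80 against 1.19 to 3.01, contig_4433 at -3.70 against -0.24 to 1.65, and contig_5068 at -4.41 against 0.76 to 2.84. Contig_7300, just outside the members, stood at -6.13 against -3.34 to -1.53. Contig_5068 was also far below the other controls in control replicate 1. It stood at -5.77 there, with the others between -0.89 and 2.55. These contigs share the pattern of set 1, so the marks are not independent of each other, and the rule itself names both samples.

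Contig_1649 was marked in both groups. It stood at 1.81 in cyfluthrin replicate 7, against -1.92 to -0.46 in the other cyfluthrin samples, and at 2.96 in control replicate 4, with the other controls between -2.04 and -0.86. The control value rests on 1 spot at 8.06 whose partner was at -2.13.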

How the results depend on the processing

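In the alternatives run, 134 to 142 members fell in sets of at least 10, against 141, with the lowest count without cyfluthrin replicate 2 and control replicates 1 and 8 together. It was 136 to 142 with 1 sample left out. With normexp background correction, which draws dim values together, 138 members fell in 4 sets in place of 3. Set 1 was then split, with 34 and 30 of its 69 contigs in different sets, while 59 of 59 contigs of set 2 and 13 of 13 of set 3 stayed together. With normexp the median smaller SD was 0.657 against 1.74, and 58 of the members would have been chosen. It was 1.36 to 1.81 with 1 sample left out. The rule would have chosen 29 of the 150 with contigs well above background on all arrays only, 59 with the jointly low contigs kept, 94 without cyfluthrin replicate 2, and 91 without cyfluthrin replicate 2 and control replicates 1 and 8 together. It chose 94 to 149 with 1 sample left out. Wherever samples were left out, the contigs that the full rule had dropped as jointly low stayed out of the ranking.

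With normexp 3643 of 6852 contigs were called changed by cyfluthrin against 2052, with 592 higher and 3051 lower. The median difference over all tested contigs was then -0.365. Of the 150 members 30 were called, all lower, by -0.72 to -0.45, 23 of them in set 1. These 30 were dim, with a median level at the 10.7th percentile of the tested contigs. Nothing particular to the members is read from this count. Without the 3 samples together 1761 of 6852 contigs were called, 456 higher and 1305 lower. Of the 150 members 2 were among them, contig_5466 and contig_7680 (limma adjusted p = 0.0310 and 0.0394), both lower. Nothing particular to the members is read from these 2 either. With 1 sample left out the calls were 1525 to 2109 contigs and 0 members. With the replicate block 949 contigs were called, or 973 by the array that stood for the pair, and 0 members. Median scaling gave 718 higher and 724 lower, against 510 and 1542, and moved the median of all contigs to 0.0077, against -0.16. Quantile normalization gave 564 higher and 807 lower, and the authors' values gave 585 and 834. Between slides, quantile normalization and the value table called 0 contigs, against 1. Without control replicate 4, 2 contigs were called, 1 of them a member, contig_8030 (-2.39, limma adjusted p = 0.0213). Leaving out 1 sample gave 1 to 2 contigs and 0 to 1 members. The causes were not tested. Signal over background limits the low ends of the ranges.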
